A study of Saccharomyces cerevisiae with 13 samples.

Results

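The genes described here make the building blocks of RNA and DNA in budding yeast. The list holds 34 genes: enzymes of purine and pyrimidine synthesis, the synthases of their shared sugar precursor, the enzymes that load one-carbon units onto folate, and the purine regulator Bas1. It was drawn up by pathway, with earlier results of these data known. Of these, 33 had a probe set, among 5449 genes measured on the array. ADE5,7, which encodes an enzyme acting at separate steps of purine synthesis, was not analysed here because no probe set carried its name.

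The cells were strain BY4741, a laboratory strain that lacks URA3 and therefore cannot make its own uracil, so that every group depended on the medium for it. They were grown to saturation in YPGE, a medium whose carbon sources, glycerol and ethanol, must be respired. TFM is 3-trifluoromethyl-4-nitrophenol, a lampricide that uncouples respiration from ATP synthesis. Cells received 0.05 mM TFM for 1, 2 or 4 h (2 arrays at each time) or 2% isopropanol for 1, 2 or 4 h (2, 1 and 2 arrays). Time zero had 2 arrays. No label states an isopropanol level for the TFM arrays, so the effects of TFM and of any difference in isopropanol cannot be told apart. The time zero label names 2% isopropanol, whereas the series design places those samples before treatment.

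Purines are assembled step by step on the sugar phosphate PRPP up to IMP, from which separate branches lead to AMP and GMP. Pyrimidines are made as a free ring, orotate, which is joined to PRPP and becomes UMP and then CTP. Folate carrying one-carbon units from serine supplies carbons for the purine ring. In yeast, Bas1 acts with Pho2 to switch on the ADE genes when purines are short, and Ppr1 does so for several URA genes when pyrimidine precursors build up.

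All levels are log2 RMA values, so a difference of 1 is a doubling. The arrays share a common distribution, and every change is therefore relative to the other transcripts of the array. In RNA from whole cultures, fewer cells carrying a transcript and less of it per cell cannot be told apart. The labels call the RNA samples independent but name no separate cultures, and p-values measure only the spread between these samples, which may be technical. Replicate arrays correlated at r of 0.992 to 0.998 across genes. The deleted gene checked the strain: URA3 and its 3 control probe sets lay between 4.65 and 5.34 on every array, where 59 control probe sets with no added transcript averaged 4.62 to 5.94. The gap between the 3′ and 5′ probe sets of 7 control transcripts, a measure of RNA integrity and labelling, was 1.63 and 1.40 on the TFM 4 h arrays, against 1.15 and 1.13 on the isopropanol 4 h arrays. It thus moved with the comparison at 4 h. On the TFM 2 h arrays it was 1.18 and 1.49, against 1.14 on the isopropanol 2 h array. The 4 h values were also fitted with this gap as a covariate. That fit is named below where it changed the call of a gene described, or moved a called gene's value by more than 1.5 times. Genes not past the threshold in either fit are outside this rule, and their values may have moved more.

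In the fit without a covariate most of these genes fell after 4 h of TFM, in both nucleotide branches. At 4 h, 23 of 33 members were lower and 2 were higher than in isopropanol (limma, adjusted p under 0.05), where 34% of all genes tested were lower and 30.9% were higher. Over the 33 members the median log2 difference was -0.40, while over all genes tested it was -0.01. Among the 14 purine enzymes 12 fell and none rose, with a median of -0.65. Among the 9 pyrimidine enzymes 7 fell and none rose, with a median of -0.65 as well. With the 3′ to 5′ gap as a covariate 18 members were lower, where 23.7% of all genes tested were, the purine median was -0.53 and the pyrimidine median was -0.31. The calls for URA4, URA5, URA6, ADE4, PRS2 and PRS3 were lost in that fit, and URA1 gained a higher call (0.36, adjusted p = 0.0485). Of the purine enzymes it had 6 of 8 lower in IMP synthesis and 5 of 6 in the AMP and GMP branches. Of the pyrimidine enzymes it had 1 of 5 lower in the route to UMP and 3 of 4 in the kinase, CTP synthase and salvage set.

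The sets within each branch had different medians at 4 h. The 6 enzymes of the AMP and GMP branches, guanylate kinase included, had a median of -0.94, and the 8 measured enzymes that build IMP had -0.35. The UMP kinase, the CTP synthases and the salvage enzyme FUR1 (4 genes) had -0.98, and the 5 enzymes of the route to UMP had -0.26. With the 3′ to 5′ gap as a covariate these medians were -0.76, -0.42, -0.76 and -0.13 in the same order. On single arrays the 6 enzymes of the AMP and GMP branches had medians of -0.79 and -0.77 relative to time zero in TFM at 4 h, against 0.06 and 0.11 in isopropanol. These medians are descriptions, and the differences between them were not tested.

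**Figure D1:**
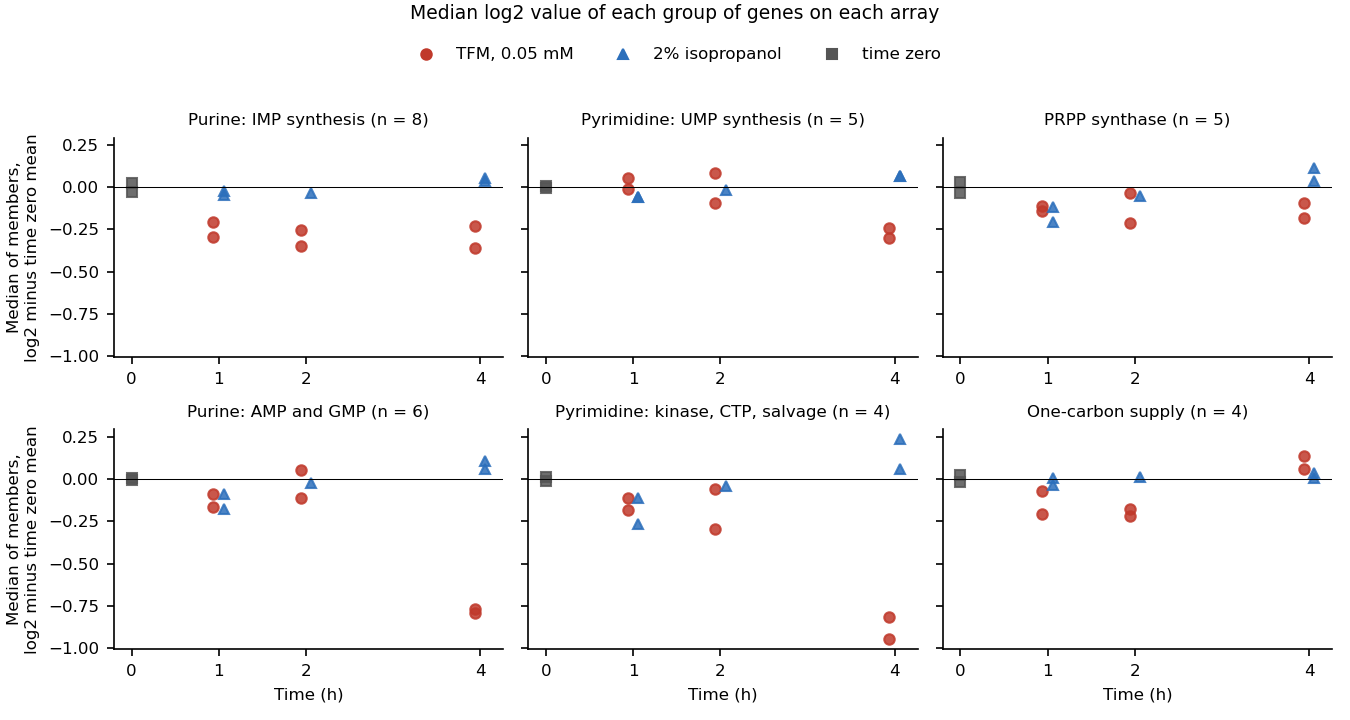
Median over the genes of each of 6 sets (panels) of the log2 level minus the time zero mean (vertical axis), against hours of treatment (horizontal axis), with 1 point per array. In the set of UMP kinase, CTP synthases and salvage the TFM 4 h arrays lie at -0.95 and -0.82, against 0.06 and 0.23 for isopropanol, while in the one-carbon set they lie at 0.13 and 0.06, against 0.01 and 0.04.

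URA7, the major CTP synthase, fell the furthest of all members. It measured 8.99 and 8.86 on the TFM 4 h arrays, against 11.10 and 11.32 on the isopropanol 4 h arrays. Both TFM arrays lay well below every other array of the course, the next lowest being a TFM 2 h array at 10.48. The log2 difference of -2.29 ± 0.14 (SE) is a 4.89-fold fall (adjusted p = 1.56e-06), and only 3 of all genes tested fell further. At 1 and 2 h its differences were -0.11 and -0.09, neither past the threshold. URA8, the other CTP synthase, stood at 12.99 and 12.82 with TFM and 13.59 and 13.56 with isopropanol at 4 h, a fall of 0.67 ± 0.07 on the log2 scale (adjusted p = 3.15e-05). The groups did not overlap for either gene, and the difference between the paralogs was not tested.

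FUR1, which salvages uracil by joining it to PRPP and so feeds UMP in a strain without URA3, also fell. Its TFM 4 h arrays read 11.07 and 11.39, against 12.43 and 12.59 on the isopropanol 4 h arrays. All other arrays read 12.03 or more, so the TFM 4 h pair stood apart. The fall was 2.43-fold, at -1.28 ± 0.14 on the log2 scale (SE, adjusted p = 3.36e-05), or -0.82 with the 3′ to 5′ gap as a covariate. URA6, the kinase that makes UDP, measured 11.44 and 11.68 with TFM and 12.14 and 12.28 with isopropanol at 4 h. Its fall of 0.65 ± 0.11 on the log2 scale (adjusted p = 0.000664) became -0.31 and lost its call (adjusted p = 0.078) with that covariate.

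The enzymes that build UMP divided. URA2, which carries out the opening steps of the pathway, was nearest 0 of all members at 4 h, with 13.56 and 13.58 in TFM and 13.52 and 13.62 in isopropanol (adjusted p = 0.979). URA1, the dihydroorotate dehydrogenase, read 13.26 and 13.57 in TFM and 13.39 and 13.46 in isopropanol, and the arrays overlapped. Its difference of -0.01 (adjusted p = 0.934) turned to 0.36 (adjusted p = 0.0485) with the 3′ to 5′ gap as a covariate, so no direction is given for it. URA4, the dihydroorotase, differed by -0.40 (adjusted p = 0.00298), which became -0.13 and lost its call with that covariate. The 2 orotate phosphoribosyltransferases differed in size of change. URA10, the minor form, stood at 10.46 and 10.69 in TFM and 11.40 and 11.38 in isopropanol, a fall of 0.81 ± 0.09 on the log2 scale (adjusted p = 3.13e-05). URA5, the major form, stood at 13.47 and 13.53 in TFM and 13.76 and 13.76 in isopropanol, a difference of -0.26 ± 0.06 (adjusted p = 0.00401). In both pairs the TFM arrays were below the isopropanol arrays, and the difference between the genes was not tested.

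On the purine side IMD2 fell the most. It encodes an IMP dehydrogenase, the enzyme that commits IMP to GMP. The TFM 4 h arrays gave 6.01 and 5.88, against 7.87 and 7.86 on the isopropanol 4 h arrays and 7.39 or more on all others. The log2 difference was -1.93 ± 0.12 (SE), a 3.80-fold fall as measured (adjusted p = 1.89e-06), or -1.66 with the 3′ to 5′ gap as a covariate. Its TFM 4 h level lay at the top of the range of control probe sets without added transcript, whose means were 4.62 to 5.94. It may thus be at background, where a measured fold can be too small. The probe set is marked by its maker as open to cross-hybridisation, and the IMD genes are close in sequence, so the reading may include paralogs.

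The other IMP dehydrogenases fell less. IMD3 measured 12.37 and 12.40 in TFM and 13.37 and 13.39 in isopropanol at 4 h, a fall of 0.99 ± 0.07 on the log2 scale (adjusted p = 3.95e-06). IMD4 measured 10.64 and 10.65 in TFM and 11.43 and 11.62 in isopropanol, a fall of 0.88 ± 0.11 (adjusted p = 6.3e-05). For all 3 genes the TFM 4 h arrays were the lowest of the course. GUA1, which turns the product into GMP, fell by 0.60 ± 0.08 on the log2 scale (adjusted p = 0.000109). GUK1, the guanylate kinase that follows, read 13.55 and 13.64 in TFM and 13.63 and 13.70 in isopropanol, and its arrays overlapped (adjusted p = 0.367).

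In the AMP branch ADE12, the adenylosuccinate synthase, read 12.39 and 12.55 in TFM at 4 h, against 13.52 and 13.55 in isopropanol. That is a 2.09-fold fall, at -1.07 ± 0.09 on the log2 scale (SE, adjusted p = 7.48e-06), and the TFM 4 h pair lay below all other arrays. ADE13, the lyase that serves both this branch and IMP synthesis, stood at 12.43 and 12.68 in TFM and 13.46 and 13.47 in isopropanol, a fall of 0.92 ± 0.11 (adjusted p = 6.99e-05), or -0.53 with the 3′ to 5′ gap as a covariate (adjusted p = 0.00318).

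**Figure D2:**
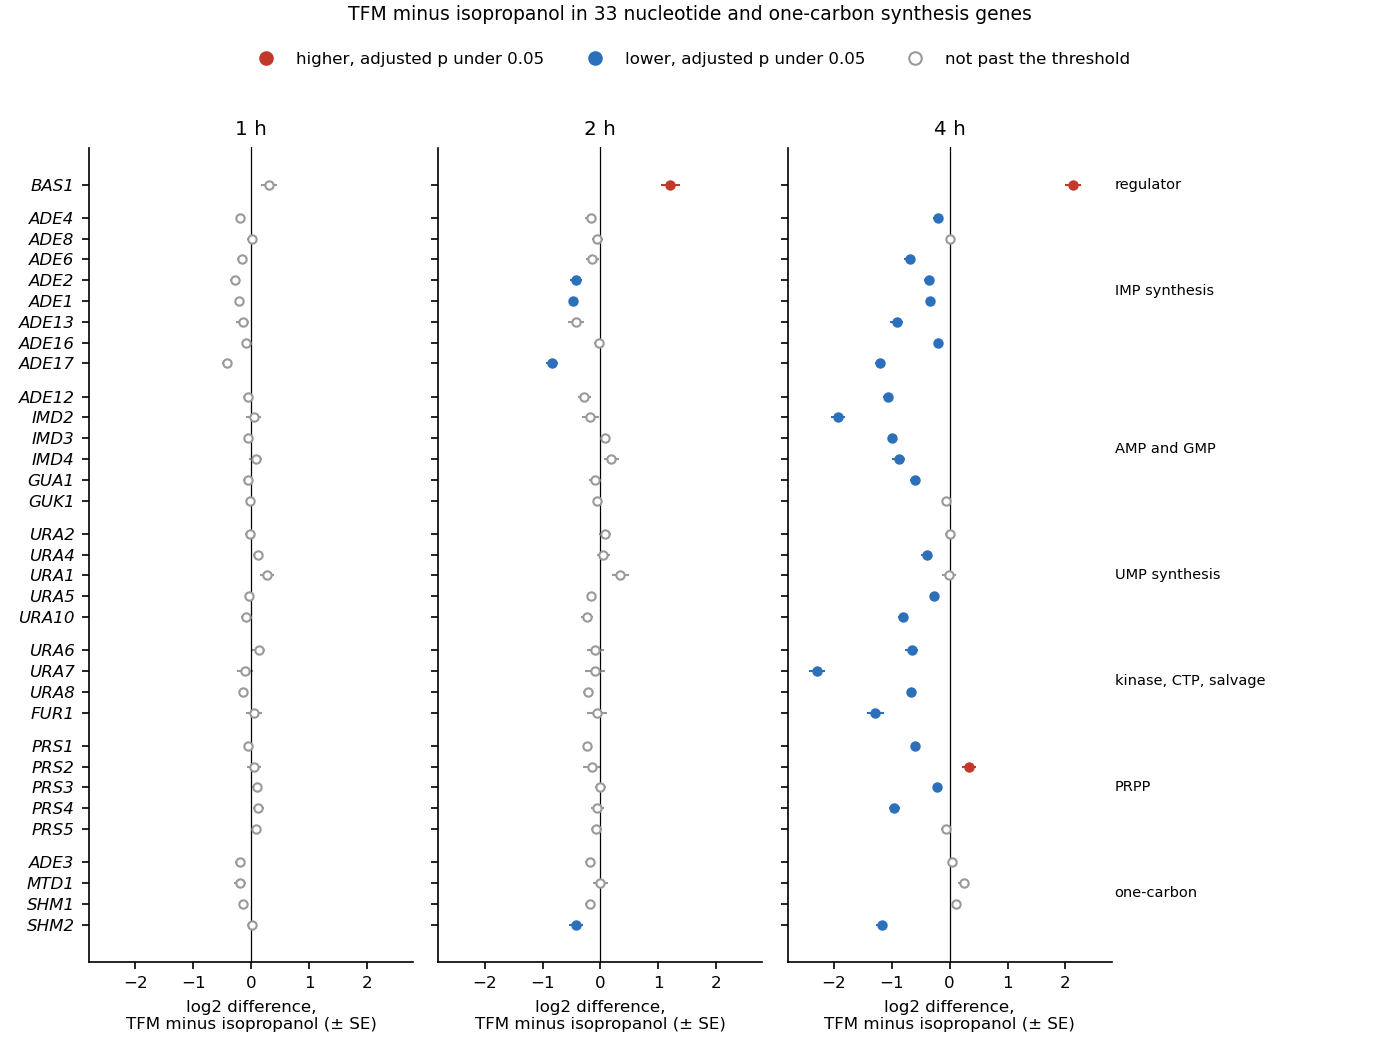
Log2 difference, TFM minus isopropanol, for each of the 33 measured members (rows, grouped by role) at 1, 2 and 4 h, with standard errors from the limma fit. BAS1 stands alone on the right at 4 h with 2.13, while URA7 and IMD2 lie furthest left with -2.29 and -1.93.

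Few members passed the threshold at 2 h. At that time 4 of 33 members were lower and 1 was higher, where 5.84% of all genes tested were lower and 8.3% were higher. The lower members were ADE17, ADE1 and ADE2 of the IMP path and SHM2 of one-carbon supply, and the higher member was BAS1. No pyrimidine enzyme and no PRPP synthase passed the threshold at 2 h. The comparison rests on 1 isopropanol array, which the fit assumes to vary like the other groups. With the arrays of the compared groups alone none of the 5 passed (adjusted p from 0.114 to 0.26), and against all 5 isopropanol arrays 11 members were lower and 2 higher. The share of all genes tested is not given for the fit against all 5, so its counts cannot be set against a background. Its 11 lower members included URA8 (adjusted p = 0.00657), URA10 (adjusted p = 0.0441) and PRS1 (adjusted p = 0.033), and URA1 was higher (adjusted p = 0.0366). URA8 and PRS1 were also lower against time zero, so the absence of pyrimidine and PRPP genes at 2 h depends on the comparison group.

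ADE17, one of the paired enzymes that close the purine ring, had the largest difference of all members at 1 h and fell from 2 h on. At 1 h it read 11.59 and 11.71 in TFM and 12.02 and 12.13 in isopropanol, at 2 h 11.50 and 11.29 in TFM and 12.23 in isopropanol, and at 4 h 10.99 and 10.93 in TFM and 12.19 and 12.15 in isopropanol. TFM lay below isopropanol at each time with no overlap. The log2 differences were -0.42 ± 0.09 at 1 h (adjusted p = 0.0567), -0.83 ± 0.11 at 2 h (adjusted p = 0.00242) and -1.21 ± 0.09 at 4 h (adjusted p = 3.55e-06). The 1 h difference misses the threshold, and it passed in 9 of 25 other settings. ADE16, which encodes the other enzyme of the pair, stood at 13.43 and 13.33 in TFM and 13.57 and 13.58 in isopropanol at 4 h, a difference of -0.19 ± 0.06 (adjusted p = 0.0184). That call was lost in 6 of 24 settings, including without TFM 4 h replicate 2 and without either isopropanol 4 h array, and the difference between the pair was not tested.

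ADE1 and ADE2, neighbouring steps of the path, were lower at both 2 and 4 h. ADE1 read 12.09 and 12.02 in TFM and 12.52 in isopropanol at 2 h, then 12.27 and 12.22 in TFM and 12.62 and 12.57 in isopropanol at 4 h. Its differences were -0.47 ± 0.08 (adjusted p = 0.00594) and -0.34 ± 0.06 (adjusted p = 0.000839). ADE2, whose loss makes yeast colonies red, read 12.55 and 12.66 in TFM and 13.03 in isopropanol at 2 h, then 12.82 and 12.65 in TFM and 13.14 and 13.06 in isopropanol at 4 h. Its differences were -0.43 ± 0.10 (adjusted p = 0.0269) and -0.36 ± 0.08 (adjusted p = 0.00382). In these genes the TFM arrays were below isopropanol at both times. The 2 h call for ADE2 was lost without TFM 2 h replicate 1 (adjusted p = 0.0652) and with the replicate block (adjusted p = 0.0556), and the 4 h difference of ADE1 was -0.20 against time zero (adjusted p = 0.0186).

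The remaining enzymes of the IMP path ranged widely at 4 h. ADE6, which makes FGAM, fell by 0.69 ± 0.09 on the log2 scale (adjusted p = 8.42e-05). ADE4, whose product opens the path and is held in check by its end products, differed by -0.21 ± 0.08 (adjusted p = 0.0338), a call lost in 12 of 23 settings, including without either TFM 4 h array and without isopropanol 4 h replicate 1. ADE8, which adds the initial one-carbon unit, read 13.05 and 12.96 in TFM and 12.96 and 13.03 in isopropanol, with overlapping arrays (adjusted p = 0.909).

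While most of the purine enzymes fell at 4 h, the transcript of BAS1, the activator of the ADE genes, rose. It read 10.14 and 10.42 in TFM and 9.86 and 10.08 in isopropanol at 1 h, and the arrays did not overlap. At 2 h it read 10.85 and 10.96 in TFM and 9.69 in isopropanol. At 4 h it read 12.24 and 11.84 in TFM and 9.87 and 9.94 in isopropanol. The TFM arrays were higher at each time, and those at 4 h were above every array of the other groups. The log2 differences were 0.31 ± 0.14 at 1 h (adjusted p = 0.285), 1.21 ± 0.17 at 2 h (adjusted p = 0.00324) and 2.13 ± 0.14 at 4 h (adjusted p = 2e-06). The rise was 2.31-fold at 2 h and 4.38-fold at 4 h, when 26 of all genes tested rose further. The 4 h call held in all 24 other settings, with values of 1.84 to 2.33. The arrays measure transcript and not the activity of the Bas1 protein.

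**Figure D3:**
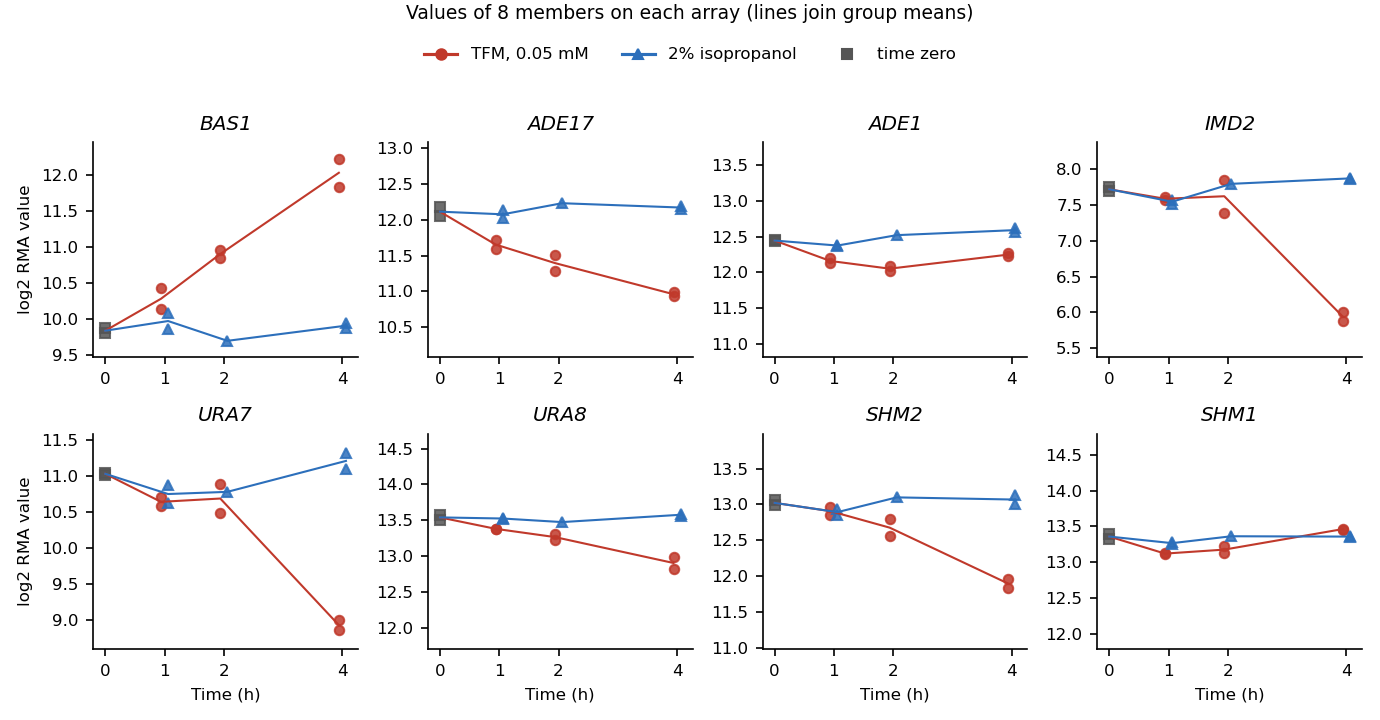
Log2 level of 8 members on each array (vertical axes) against hours (horizontal axes), with 1 point per array for TFM, isopropanol and time zero and lines through the group means. BAS1 reached 12.24 and 11.84 in TFM at 4 h, while URA7 dropped to 8.99 and 8.86 and IMD2 to 6.01 and 5.88.

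The 5 PRPP synthase genes, which supply both branches, did not move as a block at 4 h. Of these 3 fell (60%, against 34% of all genes tested) and 1 rose (20%, against 30.9%), with a median of -0.21. In the fit with the 3′ to 5′ gap as a covariate 2 were lower (40%, against 23.7%) and 0 higher (against 21.2%). The median there was -0.06, and PRS2 and PRS3 lost their calls. PRS4 measured 11.13 and 11.25 in TFM and 12.10 and 12.18 in isopropanol, a fall of 0.96 ± 0.09 on the log2 scale (adjusted p = 1.59e-05). PRS1 measured 12.39 and 12.42 in TFM and 12.98 and 13.04 in isopropanol, a fall of 0.60 ± 0.07 (adjusted p = 3.34e-05). TFM arrays of both genes lay below isopropanol with no overlap. PRS2 was higher, at 11.59 and 11.26 in TFM and 11.02 and 11.17 in isopropanol (0.33 ± 0.12, adjusted p = 0.0282), but its call was lost in 4 of 24 settings, including without TFM 4 h replicate 1 and without isopropanol 4 h replicate 1. PRS3 differed by -0.21 (adjusted p = 0.0279), lost in 7 of 24 settings, including without TFM 4 h replicate 1 and without isopropanol 4 h replicate 2. PRS5 differed by -0.07 (adjusted p = 0.481).

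Of the 4 one-carbon genes only SHM2 passed the threshold at 4 h. SHM2, the cytosolic serine hydroxymethyltransferase that passes serine's carbon to folate, read 11.84 and 11.96 in TFM and 13.01 and 13.13 in isopropanol. The TFM 4 h arrays were below all others, and the fall was 2.25-fold, at -1.17 ± 0.09 on the log2 scale (SE, adjusted p = 5.91e-06). Its mitochondrial counterpart SHM1 read 13.46 and 13.47 in TFM and 13.35 and 13.37 in isopropanol, slightly higher in TFM with no overlap, at 0.10 ± 0.06 (adjusted p = 0.161). The difference between SHM2 and SHM1 was not tested. ADE3, the cytosolic enzyme that interconverts folate one-carbon forms, differed by 0.05 (adjusted p = 0.599). MTD1, a cytosolic NAD-dependent dehydrogenase of the same folates, differed by 0.24 ± 0.10 (adjusted p = 0.0544). With the 3′ to 5′ gap as a covariate SHM1, ADE3 and MTD1 were at 0.18, -0.08 and 0.06, none past the threshold. SHM2 was also lower at 2 h, at -0.42 ± 0.12 (adjusted p = 0.0413), with 12.80 and 12.56 in TFM and 13.10 in isopropanol. That call was lost in 10 of 23 settings, among them with the 3′ to 5′ gap as a covariate (-0.30). Others were without TFM 2 h replicate 2 and without either array of time zero, TFM 1 h or isopropanol 1 h.

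At 1 h none of the 33 members passed the threshold, where 0.807% of all genes tested were higher and 0.422% lower. At an unadjusted p under 0.05, 7 members differed (limma), or 21.2% of them, against 17.7% of all genes tested. The medians were -0.07 for purine and -0.03 for pyrimidine enzymes, and -0.15 and -0.09 at 2 h.

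The TFM effect at 4 h was also tested against that at the earlier times. Against 1 h it was lower for 18 members and higher for 3, where 26.4% of all genes tested were lower and 22.9% higher. Against 2 h, in a test added after the values were seen, it was lower for 15 members and higher for 2, where 20.2% were lower and 14.9% higher. The 15 held 5 of the 6 enzymes of the AMP and GMP branches and all 4 of the kinase, CTP synthase and salvage set. They held 1 of the 8 enzymes of IMP synthesis, ADE6, and 2 of the 5 of the route to UMP, URA4 and URA10. URA7 changed the most between 2 and 4 h, by -2.20 ± 0.22 on the log2 scale (adjusted p = 0.000258). BAS1 was higher by 0.92 ± 0.22 (adjusted p = 0.0108), and the other higher gene was SHM1, by 0.29 ± 0.10 (adjusted p = 0.0429). Against 1 h the genes higher besides BAS1 were MTD1 and SHM1. The count of 3 fell to 1 without TFM 1 h replicate 1, TFM 4 h replicate 1, either isopropanol 1 h array or isopropanol 4 h replicate 2, and the count of 2 fell to 1 in 10 of 12 fits that left out 1 array, the exceptions being those without TFM 2 h replicate 1 and TFM 4 h replicate 2. ADE17 had most of its fall by 2 h, and its further change of -0.37 ± 0.14 missed the threshold (adjusted p = 0.0648).

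None of the members passed the threshold between the isopropanol arrays and time zero. This comparison cannot separate isopropanol from elapsed time, and the time zero label also names 2% isopropanol. Against time zero 0 of 33 members differed at 1, 2 or 4 h in limma, where 0% of all genes tested did at each time. At an unadjusted p under 0.05 there were 2, 0 and 1 members, or 6.06, 0 and 3.03% of them, against 6.74, 2.04 and 1.23% of all genes tested. The smallest adjusted p belonged to PRS5 at 1 h (-0.24, adjusted p = 0.669).

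Genes around these pathways, taken from lists by function, changed in several directions at 4 h, where 34% of all genes tested were lower and 30.9% higher. Purine salvage and interconversion had 53.3% lower (8 of 15 genes) and 20% higher (3 genes). In the fit with the 3′ to 5′ gap as a covariate 4 were lower (26.7%, near the 23.7% of all genes tested). In the same fit 3 were higher (20%, near 21.2%). APT1, which recycles adenine to AMP, read 10.06 and 10.40 in TFM and 12.10 and 12.30 in isopropanol, a 3.92-fold fall (-1.97 ± 0.13, adjusted p = 1.92e-06). ADK1, the adenylate kinase that balances AMP, ADP and ATP, fell by 1.26 ± 0.07 on the log2 scale (adjusted p = 9.95e-07). The 3 genes higher in the main fit, FCY2, FCY21 and FCY22, encode the purine and cytosine permease and its relatives. With the covariate FCY21 missed the threshold (adjusted p = 0.0504) and GUD1 was higher instead (0.55, adjusted p = 0.0272).

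Of the 7 pyrimidine salvage genes, 2 rose and 2 fell at 4 h, 28.6% in each direction and so near the shares of 30.9% higher and 34% lower among all genes tested. With the 3′ to 5′ gap as a covariate 3 were higher (42.9%, against 21.2%) and 2 lower (28.6%, against 23.7%). The added higher gene was CDD1 (0.47, adjusted p = 0.0452). FUI1, the uridine permease, read 13.16 and 13.30 in TFM and 11.56 and 11.64 in isopropanol, a 3.09-fold rise (1.63 ± 0.08, adjusted p = 6.65e-07). Its TFM 4 h arrays were above all others. URH1, a nucleosidase that frees uracil from uridine, fell by 0.88 ± 0.11 on the log2 scale (adjusted p = 8.07e-05), or -0.55 with the 3′ to 5′ gap as a covariate. FUR4, the uracil permease, differed by 0.54 ± 0.11 at 1 h (adjusted p = 0.0481), the only gene of these lists past the threshold then. Its 1 h means were 10.30 in TFM and 9.76 in isopropanol, above and below the time zero mean of 10.07. At 4 h FUR4 differed by -0.12 (adjusted p = 0.334).

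Deoxyribonucleotide synthesis was lower in 7 of 9 genes (77.8%, against 34% of all genes tested) and higher in 2 (22.2%, against 30.9%) at 4 h. In the fit with the 3′ to 5′ gap as a covariate it was lower in 5 (55.6%, against 23.7%) and higher in 0 (against 21.2%). CDC21, the thymidylate synthase, read 9.34 and 9.57 in TFM and 10.86 and 10.88 in isopropanol, a 2.66-fold fall (-1.41 ± 0.14, adjusted p = 1.53e-05), or -0.94 with the covariate. RNR4, a ribonucleotide reductase subunit, fell by 0.85 ± 0.09 on the log2 scale (adjusted p = 2.44e-05). The higher genes were RNR3, the alternative large subunit (0.40), and SML1, an inhibitor of the reductase (0.27), and neither passed with the covariate.

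Folate synthesis and glycine cleavage had 4 of 13 genes lower (30.8%, near the 34% of all genes tested) and 2 higher (15.4%, against 30.9%). With the 3′ to 5′ gap as a covariate 3 were lower (23.1%, against 23.7%) and 2 higher (15.4%, against 21.2%). In that fit GCV1 and FOL2 lost their calls and MET13 gained one (1.52, adjusted p = 0.000685). MIS1, the mitochondrial counterpart of ADE3, read 11.82 and 11.77 in TFM and 12.97 and 12.90 in isopropanol, a 2.20-fold fall (-1.14 ± 0.07, adjusted p = 1.33e-06), while ADE3 differed by 0.05. FOL3, a folate synthesis enzyme, fell by 0.77 ± 0.10 on the log2 scale (adjusted p = 9.58e-05). Serine and glycine synthesis had 2 of 6 genes higher (33.3%, near the 30.9% of all genes tested) and none lower, SER3 by 0.85 (adjusted p = 4.46e-05) and GLY1 by 0.29 (adjusted p = 0.0491). With the 3′ to 5′ gap as a covariate GLY1 was at 0.63 (adjusted p = 0.00611) and SER2 was lower (-0.96, adjusted p = 0.00891). Among the other regulators PPR1 was higher by 0.78 ± 0.16 (adjusted p = 0.00187) and GCN4, the activator of amino acid synthesis, by 0.19 ± 0.06 (adjusted p = 0.0221). Bas1's partner PHO2 differed by 0.08 (adjusted p = 0.561). With the covariate PPR1 (0.30, adjusted p = 0.223) and GCN4 (adjusted p = 0.272) lost their calls and PHO2 gained one (0.42, adjusted p = 0.0336).

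**Figure D4:**
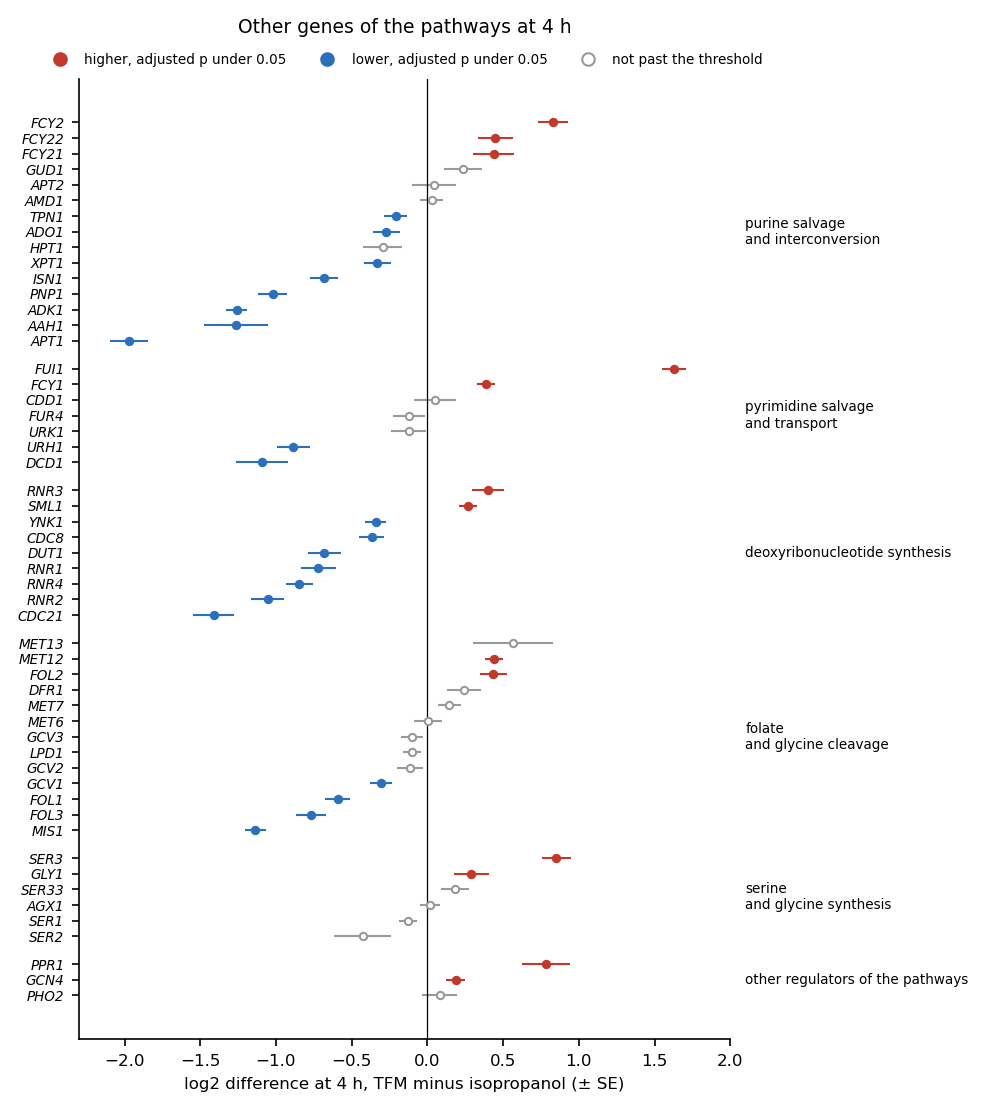
Log2 difference, TFM minus isopropanol at 4 h (horizontal axis), for the genes of each companion list (rows), with filled points past the adjusted p threshold of 0.05. Deoxyribonucleotide synthesis lies mostly to the left, with CDC21 at -1.41, and the pyrimidine salvage list holds the highest point, FUI1 at 1.63.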

How the data were processed

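Total RNA from 13 samples was labelled with biotin and read on 1-colour yeast expression arrays. The authors' deposited table holds log2 values, made with RMA per the submitters' processing notes (version not given in the sources used here), which corrects background, brings arrays to a common distribution and summarises the probes of each probe set. Of its 5900 probe sets, 5498 carried 1 gene in the platform annotation, and 12 symbols were updated through a RefSeq gene table. Each of 5449 genes was represented by the probe set of highest mean over the arrays, and none of the members had several.

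The 13 arrays entered a single linear model, without further normalization, that estimated 7 group means in limma 3.58.1 under R 4.3.3 (default eBayes, 6 residual and 3.52 prior degrees of freedom). P-values are two-sided and adjusted by Benjamini-Hochberg over all 5449 genes, with a threshold of 0.05. Isopropanol at 2 h had 1 array, whose spread was taken from the other groups. The code was tested on simulated data. Precision is limited by the number of arrays, with a median standard error per gene of 0.0954 at 1 and 4 h and 0.117 at 2 h on the log2 scale. Python 3.11.15 and matplotlib 3.10.9 made the figures.

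The members and gene lists were chosen with earlier results of these data known. Values in full were given for the 8 largest differences past the threshold in each TFM contrast, for paralog pairs, for members nearest 0 and for URA3, and in each companion list for the 2 genes of smallest adjusted p at 4 h. A few other companion genes were named after their values were seen. The test of 4 h against 2 h, 1 crossed pairing of replicate numbers and the 3′ to 5′ covariate for gene sets and companion lists were also added after the values were seen. Other settings covered variance, scaling, dim genes, the comparison group, a replicate block, the 3′ to 5′ gap and leaving out each array. Deviations of same-numbered replicates correlated at -0.471 to 0.599 over 15 pairs of groups. Time zero correlated at 0.426 with isopropanol 1 h and 0.599 with isopropanol 4 h, and these 2 isopropanol groups at 0.266. Pairs with a TFM group lay at -0.471 to 0.065. The numbers were not taken to pair the arrays in the main model, though those without TFM may share deviations. No batch is named in the labels. Promoter and protein sequences were not used here.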

Additional observations from a re-analysis of the deposited data

Results flagged for a closer look

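The TFM effect, TFM minus isopropanol, differed between times for 21 members at 4 h against 1 h and for 17 members at 4 h against 2 h, by limma's test of the difference itself (adjusted p under 0.05). Over all genes tested 49.3% differed at 4 h against 1 h and 35.1% at 4 h against 2 h. The values below are log2 differences of these effects.

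Among purine enzymes the effect at 4 h minus that at 1 h was -1.97 for IMD2, -1.01 for ADE12, -0.96 for IMD4, -0.95 for IMD3, -0.79 for ADE17, -0.77 for ADE13, -0.54 for ADE6 and -0.54 for GUA1. Among pyrimidine enzymes it was -2.18 for URA7, -1.33 for FUR1, -0.79 for URA6, -0.72 for URA10, -0.53 for URA8 and -0.51 for URA4. In the PRPP and one-carbon genes it was -1.08 for PRS4, -0.56 for PRS1, -0.31 for PRS3, -1.19 for SHM2, 0.44 for MTD1 and 0.25 for SHM1. For the regulator BAS1 it was 1.82.

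Against 2 h the purine values were -1.75 for IMD2, -1.07 for IMD3, -1.07 for IMD4, -0.79 for ADE12, -0.56 for ADE6 and -0.51 for GUA1. The pyrimidine values were -2.20 for URA7, -1.23 for FUR1, -0.58 for URA10, -0.57 for URA6, -0.46 for URA8 and -0.45 for URA4. The others were -0.90 for PRS4, -0.38 for PRS1, -0.75 for SHM2, 0.29 for SHM1 and 0.92 for BAS1. The 2 h values share 1 isopropanol array, and the 4 h arrays enter both sets of differences.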

How the results depend on the processing

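Of the 25 members called at 4 h, 18 kept their call in every setting tried, and the other 7 (ADE4, ADE16, URA4, URA5, URA6, PRS2 and PRS3) lost it in at least 1. None of the 5 calls at 2 h held in all settings. Unless named, causes were not tested. Shares of all genes tested are not given for the counts below, so these cannot be set against a background. The number of lower members at 1 h (main 0) was 1 with a trended robust variance, cyclic loess, quantile normalization, without the dimmest 25%, against time zero and with the 3′ to 5′ covariate, and 2 against all 5 isopropanol arrays. The purine median at 1 h was -0.18 against time zero and -0.14 against all 5. At 2 h 9 members were lower against time zero, and 11 were lower and 2 higher against all 5. With the compared groups alone, and so fewer arrays, 0 were lower and 0 higher, and with the covariate 2 were higher. The purine median at 2 h was -0.12 without the dimmest 25%, -0.19 against time zero and -0.10 with the covariate, when the pyrimidine median was 0.092. At 4 h the purine median was -0.57 with cyclic loess, -0.62 against time zero, -0.59 against all 5 and -0.53 with the covariate. The pyrimidine median was -0.54 against time zero, -0.50 against all 5 and -0.31 with the covariate, under which URA1 turned to 0.36 (adjusted p = 0.0485). Members higher at 4 h numbered 4 against all 5 and 1 with the compared groups alone. Against 1 h the 4 h effect was higher for 1 member with the covariate. Against 2 h it was higher for 1 and lower for 8 with the compared groups alone.

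With the replicate block 2 members were lower at 2 h, ADE2 and SHM2 having lost their calls, and the 4 h effect was higher than that at 2 h for 1. The block left the counts at 1 and 4 h unchanged. Leaving out 1 array at a time gave 0 to 1 lower members at 1 h and 1 to 3 higher members at 4 h. The purine median ranged from -0.11 to -0.063 at 1 h, from -0.17 to -0.091 at 2 h and from -0.71 to -0.59 at 4 h. The pyrimidine median ranged from -0.029 to 0.077 at 1 h, from -0.21 (without TFM 2 h replicate 1) to 0.12 (without TFM 2 h replicate 2) at 2 h, and from -0.66 to -0.53 at 4 h. The 4 h effect was higher for 1 to 4 members against 1 h and for 1 to 3 against 2 h. Without the isopropanol 2 h array there is no 2 h value. Companion lists were fitted in the main setting and, as an alternative chosen after seeing the data, with the 3′ to 5′ covariate at 4 h. For a probe set near the level of controls without added transcript, such as IMD2 in TFM at 4 h, a measured fold can be too small.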
